A study of Mus musculus with 7 samples.

Results

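The BCL2 family decides whether a cell opens its mitochondria to apoptosis, and 10 of its genes were followed here: Bcl2a1a, Bcl2a1b, Bcl2a1d, Mcl1, Bcl2, Bcl2l1, Bcl2l11, Bax, Bak1 and Bid. They were picked by symbol, through the Ensembl identifiers of the count table, and all 10 were found among its 51789 genes. The table came from 3′ tag sequencing (QuantSeq) of polyA RNA from mouse granulocytes, the leukocyte class of neutrophils, eosinophils and basophils. Of the 7 libraries, 4 were wild type and 3 were knockout for Alox15, which encodes a lipoxygenase of polyunsaturated fatty acids, and all of them were labelled untreated. The strain, age, tissue, sorting and the deleted part of the gene are not given in the sources used here. Nor is it stated that replicates are separate animals, so p-values refer to library-to-library spread alone, part of which may be technical.

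Family members share short stretches called BCL2 homology (BH) domains. The survival proteins BCL2, BCL-XL (from Bcl2l1), MCL1 and A1 (from the Bcl2a1 genes) hold the pore-forming effectors BAX and BAK in check, and BH3-only proteins such as BIM (from Bcl2l11) and BID tip the balance toward death. Neutrophils are short-lived cells that are known to depend on MCL1, a protein with rapid turnover, and they also express A1. T and B lymphocytes are known to rely on BCL2.

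The libraries held between 3228292 and 5657192 counts, of which the 10 genes together took 0.0496% to 0.244%. Levels are given as CPM (counts per 1000000 counts), scaled between libraries with TMM factors. Alox15 had 0 counts in every library except 1 count in knockout 1, so it does not check the genotype labels. Transcripts of the neutrophil markers were present throughout but uneven. The summed level of 10 neutrophil markers, all 10 of them detected, ran from 2548 to 26259 CPM in the wild types and from 1982 to 22701 CPM in the knockouts, with wild type 2 and knockout 3 lowest. Of 8 eosinophil markers, the peroxidase gene Epx was at 0 in all libraries and the other 7 summed to 3.13 to 33.8 CPM. Also at 0 were 5 of 7 basophil and mast cell markers, Mcpt8, Fcer1a, Ms4a2, Gata2 and Prss34. T lineage transcripts were present too, with a sum over 12 markers, all detected, of 408 to 1081 CPM in the wild types and 462 to 1072.5 CPM in the knockouts. Knockouts 2 and 3 also differ from the other 5 libraries in the stem of their sample description and in sex-linked transcripts, since Xist stood at 382 and 102 CPM there and at 0.896 to 6.11 CPM elsewhere. Sex, stem and that part of the genotype contrast cannot be told apart.

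The 3 Bcl2a1 genes are near-identical copies on chromosome 9, and how far their reads can be told apart bears on all of their values. Bcl2a1a (ENSMUSG00000102037) lies at 88956900 to 88962419 on the plus strand, Bcl2a1b (ENSMUSG00000089929) at 89199209 to 89207827 on the plus strand, and Bcl2a1d (ENSMUSG00000099974) at 88723285 to 88731914 on the minus strand of GRCm38. In GENCODE M21 each has 2 exons and a coding sequence of 519 bases, of which 12 positions differ among the 3. The first 60 coding bases hold 6 of those 12 positions and are shown, 5′ to 3′, with the differing bases in capitals.
Bcl2a1a: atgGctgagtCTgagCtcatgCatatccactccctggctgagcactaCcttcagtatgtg
Bcl2a1b: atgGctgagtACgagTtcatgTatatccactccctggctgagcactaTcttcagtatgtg
Bcl2a1d: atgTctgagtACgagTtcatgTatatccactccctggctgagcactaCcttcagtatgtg

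These differences lie at the 5′ end of the coding sequence, whereas 3′ tags fall near the other end of the transcript. Over the last 300 bases, Bcl2a1a and Bcl2a1d differed at 2 of 300 aligned positions, Bcl2a1b and Bcl2a1d at 2 of 298, and Bcl2a1a and Bcl2a1b at 4 of 298. Of the 251 windows of 50 bases in that stretch, 35.5% of those of Bcl2a1a, 25.9% of those of Bcl2a1b and 5.2% of those of Bcl2a1d occurred in no other Bcl2a1 transcript. At 100 bases the shares were 63.2%, 57.2% and 20.4%. The read length is not given in the sources used here, and it is not known which of these shares applies, but Bcl2a1d had the fewest distinguishing windows at each length.

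The promoters of the 3 genes were also near-identical, and they are shown because these genes are treated below as 1 sum. Each is the stretch from 250 to 71 bases before the RefSeq start site (GRCm38.p6), in the gene's own direction: chr9:88956670-88956849 on the plus strand, chr9:89199023-89199202 on the plus strand and chr9:88731921-88732100 on the minus strand. Capitals mark TGANTCA and GAGGAAGT, a core bound by ETS factors such as PU.1. TGANTCA is a loose pattern that takes in AP-1 sites but allows any middle base, and it was matched here as TGAATCA.
Bcl2a1a: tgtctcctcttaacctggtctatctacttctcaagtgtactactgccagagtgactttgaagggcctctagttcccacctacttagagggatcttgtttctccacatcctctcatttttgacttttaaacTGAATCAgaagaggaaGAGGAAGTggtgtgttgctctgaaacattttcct
Bcl2a1b: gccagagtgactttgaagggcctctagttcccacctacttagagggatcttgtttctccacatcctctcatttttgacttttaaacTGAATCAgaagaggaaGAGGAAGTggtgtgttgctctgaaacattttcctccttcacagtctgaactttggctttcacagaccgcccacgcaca
Bcl2a1d: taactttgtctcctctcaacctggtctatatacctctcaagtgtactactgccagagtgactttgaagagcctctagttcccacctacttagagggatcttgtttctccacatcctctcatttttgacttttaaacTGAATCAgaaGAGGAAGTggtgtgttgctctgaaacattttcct

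Both motifs stood in each of the 3 promoters. Within the 300-base windows, 256 bases aligned between Bcl2a1a and Bcl2a1b and were 99.2% identical. The values were 294 bases and 98.0% for Bcl2a1a and Bcl2a1d, and 250 bases and 98.8% for Bcl2a1b and Bcl2a1d. Gapped and unaligned bases were left out. Among all 32851 RefSeq promoter windows of the same length, 7.81% held TGANTCA and 3.20% held GAGGAAGT on either strand. The promoters of the 10 genes were also searched, on both strands, for 5 other motifs: the kappa-B motif, TTCNNNGAA for STAT factors, TGACGTCA for CREB, TATAAA and the E-box CACGTG, found in 8.46%, 8.30%, 1.79%, 13.6% and 7.15% of windows. In the other 7 genes the matches were GAGGAAGT for Bak1, CACGTG at 2 places for Bax and the kappa-B motif in 1 of the 3 promoters of Bcl2l1. A match is a stretch of letters and not a known binding site, and the 3 near-identical windows are not independent of each other.

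Among the survival genes, Bcl2a1b had 131, 17.9, 44.5 and 50.04 CPM in wild types 1 to 4 and 56.8, 73.8 and 20.1 CPM in knockouts 1 to 3. Bcl2a1a had 22.1, 3.29, 12.7 and 16.4 CPM in the wild types and 18.9, 34.9 and 0.974 CPM in the knockouts. For both, wild type 2 and knockout 3 were the lowest libraries, and the genotypes overlapped.

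Bcl2a1d behaved differently, with 112, 0, 34 and 0 counts in the wild types and 286, 0 and 5 counts in the knockouts. A count of 0 allows up to 0.470 CPM in wild type 2, 0.794 CPM in wild type 4 and 0.919 CPM in knockout 2 by the limit of 3 counts, whereas knockout 1 stood at 55.6 CPM and wild type 1 at 33.5 CPM. Of the counts assigned to the 3 copies, Bcl2a1d took 42.4% in knockout 1 (exact Clopper-Pearson 95% interval 38.6 to 46.2%), 17.9% in wild type 1 (14.99 to 21.2%), 10.6% in wild type 3 (7.42 to 14.4%) and 4.42% in knockout 3 (1.45 to 10.02%). In knockout 2 it took 0 of 355, which allows a share of up to 0.845% if 3 counts are taken as the limit (upper bound of the exact interval, 1.03%). The intervals and limits cover counting error only, since tags without molecular identifiers are not independent molecules. The on-and-off pattern went beyond these intervals, which treat each count as independent and may be too narrow. It was found within both genotypes. Whether it comes from how reads were divided among the copies was not tested.

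**Figure D1:**
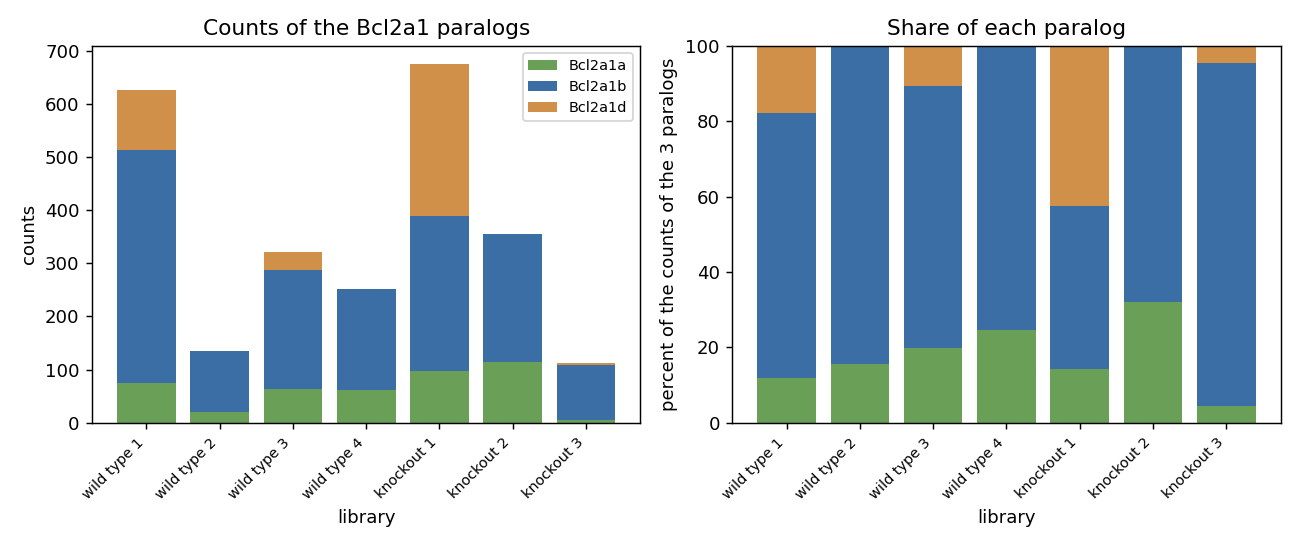
Counts assigned to Bcl2a1a, Bcl2a1b and Bcl2a1d in each library (left, stacked counts) and as a percentage of their sum (right). Bcl2a1d has 0 counts in wild type 2, wild type 4 and knockout 2 and reaches 42.4% in knockout 1.

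The sum of the copies does not change with how the counted reads were divided among them, but whether reads shared by the copies were counted at all is not given in the sources used here. It came to 187, 21.1, 64.0 and 66.5 CPM in the wild types and to 131, 108.7 and 22.0 CPM in the knockouts, an 8.83-fold span over the libraries. The means were 84.6 ± 71.2 CPM (SD, n = 4) in the wild types and 87.3 ± 57.7 CPM (SD, n = 3) in the knockouts, with a log2 fold change of 0.049 ± 0.75 (SE; edgeR adjusted p = 0.99999). The fold change was 0.75 without wild type 1 and -0.37 without knockout 1, the libraries with the highest sums.

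Mcl1 (ENSMUSG00000038612, chromosome 3, 95658788 to 95663176, plus strand) gave the most counts of the 10 genes in every library, from 51.3% of their sum in knockout 3 to 73.6% in wild type 3. Such 3′ tag counts are not divided by transcript length, because tags come from near the transcript's end, so these shares describe tags and are not a comparison per length. Mcl1 stood at 1749.5, 429.6, 1021 and 714 CPM in the wild types and at 1416, 1099 and 265 CPM in the knockouts. The genotypes overlapped, the means being 978 ± 568 CPM (SD, n = 4) and 927 ± 595 CPM (SD, n = 3), and the log2 fold change was -0.078 ± 0.61 (SE; edgeR adjusted p = 0.99995). It was 0.32 without wild type 1 and -0.52 without knockout 1.

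Bcl2l1, the gene of BCL-XL (ENSMUSG00000007659, chromosome 2, 152780668 to 152831728, minus strand), had 167, 15.8, 37.3 and 39.7 CPM in the wild types and 128, 102.9 and 24.3 CPM in the knockouts. Wild type 1 was the highest library and wild type 2 the lowest, a 10.6-fold span that the knockouts did not leave. The log2 fold change was 0.39 ± 0.80 (SE; edgeR adjusted p = 0.99995). It rose to 1.42 without wild type 1, with an unadjusted p of 0.0403 and an adjusted p of 0.9998 in edgeR, and was -0.029 without knockout 1. Limma-voom with quality weights gave 1.33, with an unadjusted p of 0.0443 and an adjusted p of 0.893. The ratio of Bcl2l1 to Mcl1 was 0.0906, 0.0936 and 0.0920 in the knockouts and 0.0955, 0.0368, 0.0366 and 0.0556 in the wild types, so wild type 1 lay just above the knockouts and the other wild types below them.

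Bcl2 (ENSMUSG00000057329, chromosome 1, 106538178 to 106714274, minus strand) followed another order. It had 23.9, 62.3, 48.3 and 45.01 CPM in the wild types and 40.2, 54.8 and 42.8 CPM in the knockouts. It was highest in wild type 2 and lowest in wild type 1, the reverse of Bcl2l1. The group means of 44.9 ± 15.9 CPM (SD, n = 4) and 46.0 ± 7.78 CPM (SD, n = 3) differed by less than the spread, with a log2 fold change of 0.031 ± 0.35 (SE; edgeR adjusted p = 0.99995). The ratio of Mcl1 to Bcl2 consequently ran from 6.89 in wild type 2 to 73.2 in wild type 1, and from 6.18 in knockout 3 to 35.2 in knockout 1.

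**Figure D2:**
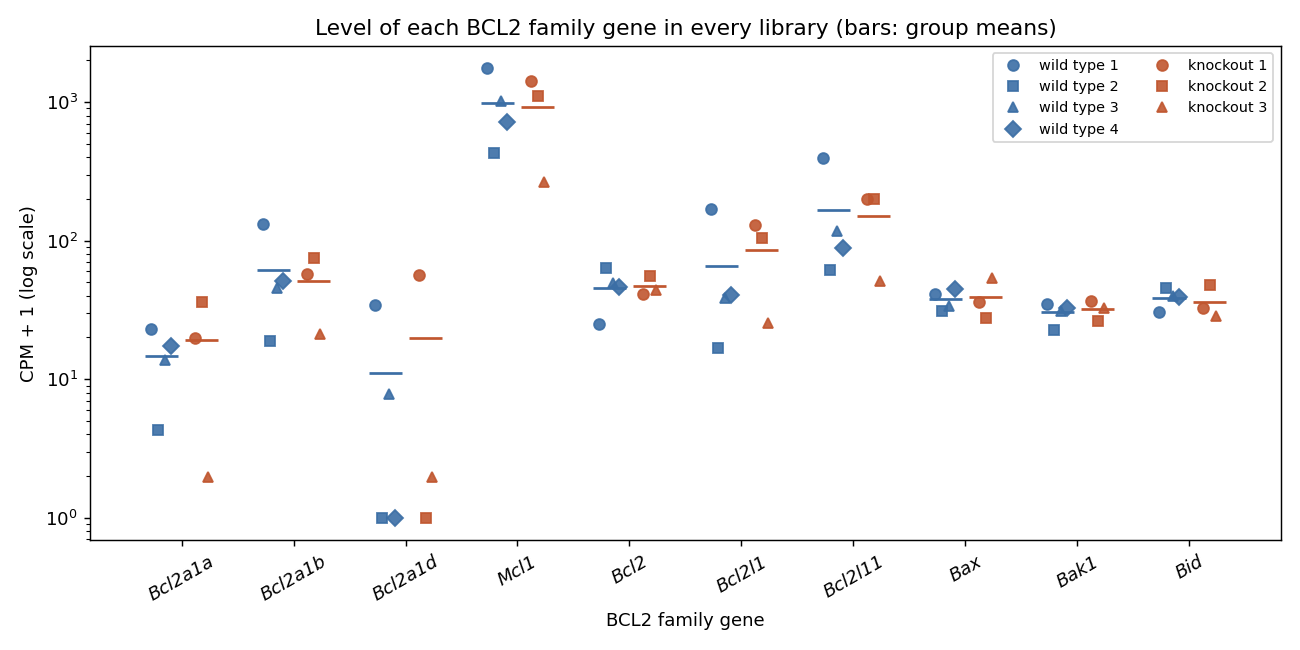
CPM plus 1 on a log scale for the 10 BCL2 family genes, 1 point per library, with wild type in blue, knockout in orange and bars at the group means. The genotypes overlap for each gene, Mcl1 is spread from 265 to 1749.5 CPM, and Bcl2, Bax, Bak1 and Bid have the narrowest spans.

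Of the pro-apoptotic members, Bcl2l11 (ENSMUSG00000027381, chromosome 2, 128126038 to 128162547, plus strand) encodes BIM, a BH3-only protein that binds all of the survival proteins. It had 396, 60.4, 116 and 86.8 CPM in the wild types and 198.1, 197.6 and 50.4 CPM in the knockouts. The order of the libraries from low to high was that of Mcl1, so this death gene was high where the survival genes Mcl1 and Bcl2l1 were high. The ratio of Bcl2l11 to Mcl1 stayed between 0.113 and 0.226, a 2.00-fold span, where Mcl1 alone spanned 6.61-fold and Bcl2l11 alone 7.86-fold. The log2 fold change was -0.15 ± 0.71 (SE; edgeR adjusted p = 0.99995), and 0.72 without wild type 1.

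Bid (chromosome 6, 120891930 to 120916853, minus strand), whose protein links death receptors to mitochondria once a caspase has cut it, had 29.6, 44.6, 38.5 and 38.4 CPM in the wild types and 31.7, 46.6 and 27.7 CPM in the knockouts. The effector gene Bax (chromosome 7, 45461697 to 45466898, minus strand) had 40.3, 29.9, 32.8 and 43.9 CPM in the wild types and 34.8, 26.6 and 52.6 CPM in the knockouts, and the other effector gene, Bak1 (chromosome 17, 27019810 to 27029009, minus strand), had 34.1, 21.8, 30.2 and 31.5 CPM in the wild types and 35.4, 25.4 and 31.7 CPM in the knockouts. These levels were the steadiest of the 10, with spans over the 7 libraries of 1.68-fold for Bid, 1.97-fold for Bax and 1.63-fold for Bak1. Their log2 fold changes were -0.10 ± 0.31, 0.052 ± 0.33 and 0.073 ± 0.30 (SE), each with an edgeR adjusted p of 0.99995. Bid overlaps Bcl2l13 on the opposite strand, which had 128 to 307 counts per library. Without a stated strand setting, reads of the overlapping part cannot be assigned with certainty. The overlapping genes of the other members had at most 19 counts in a library.

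In the comparison of knockout with wild type, 0 of the 10 genes passed the test, 6 had a fitted change above 0 and 4 below 0, and the median log2 fold change was 0.042. The same test called 0 of 12506 genes in either direction (0% of those tested) at an adjusted p under 0.05. Over all genes tested the median was 0.012, with 6428 fitted changes above 0 and 6078 below 0. At an unadjusted p under 0.05 edgeR had 0 of the 10 genes, against 1.23% of all genes, DESeq2 had 0, against 1.71% of all genes, and limma-voom had 1, Bcl2l1, against 4.19%. The groups did not overlap for 0 of the 10 genes, against 3.13% of all genes. With standard errors of 0.30 to 0.95 on the log2 scale, and 1.92 for Bcl2a1d, these libraries do not show that the levels are alike. With the description stem as a covariate, so that knockout 1 alone meets the wild types of its stem, the values ran from -0.25 for Bid to 2.49 for Bcl2a1d and 0 of the 10 genes were called (smallest unadjusted p = 0.253, edgeR).

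**Figure D3:**
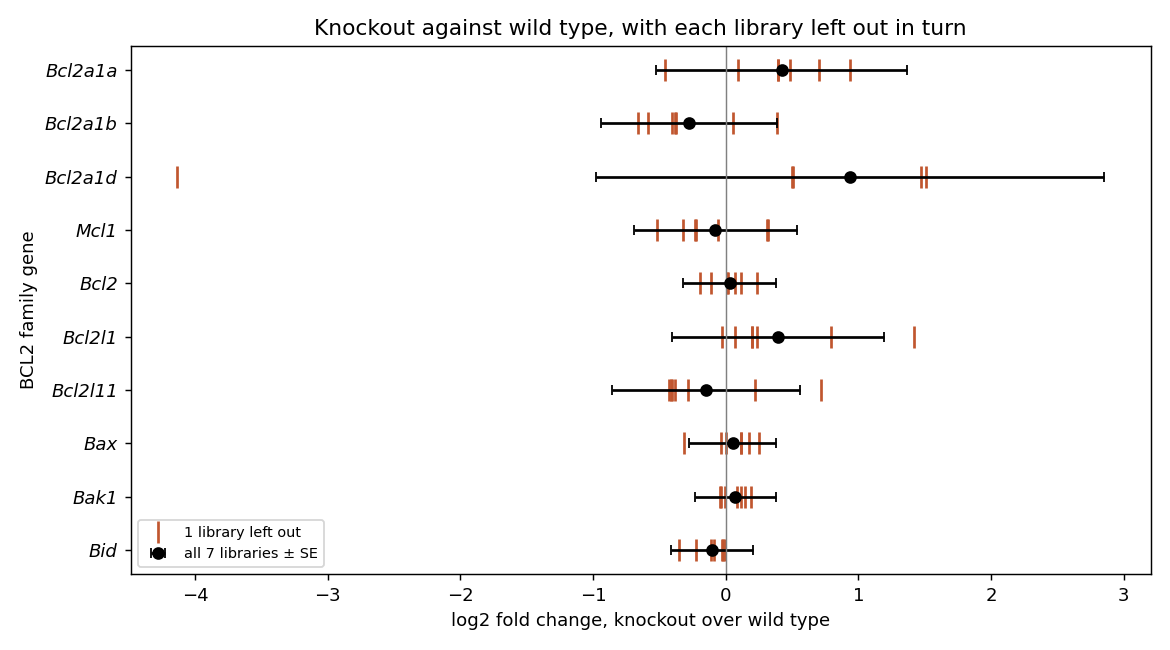
Log2 fold change of knockout over wild type for each gene with all 7 libraries (black points, bars ± SE) and with 1 library left out in turn (orange ticks, up to 7 per gene). All bars cross 0, and for Bcl2a1d the value moves from 0.94 to -4.14 without knockout 1.

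For each of the 10 genes the fitted difference between genotypes was smaller than its standard error, and the libraries were not ordered alike for all of them. Wild type 2 and knockout 3 were the lowest 2 libraries for 5 of them, Bcl2a1a, Bcl2a1b, Mcl1, Bcl2l1 and Bcl2l11. Over all genes tested this held for 16.1%, or 2011 genes, so the order is not particular to these members. Bcl2a1a and Bcl2a1b are near-identical copies and are not independent of each other. The pair of libraries was taken from these same data. The order was seen in 0 of Bcl2, Bax, Bak1, Bid and Bcl2a1d, and in no member were those libraries the highest 2 (6.25% of all genes). The SD of log2 CPM over the 7 libraries was 0.97 for Mcl1, 1.06 for Bcl2l11 and 1.28 for Bcl2l1, against a median of 0.42 over the 5027 genes whose mean log2 CPM was 5 or more. It was 0.24 to 0.44 for Bak1, Bid, Bax and Bcl2.

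Wild type 2 and knockout 3 were also lowest in summed neutrophil markers, at 2548 and 1982 CPM against 10974 to 26259 CPM in the other 5 libraries. In summed T lineage markers they were highest, at 1081 and 1072.5 CPM against 408 to 790.0 CPM, but most single markers differed. Cd3g alone followed the sum, at 53.1 CPM in wild type 2 and 43.6 CPM in knockout 3. Cd3e was highest in wild type 4, at 137 CPM, and Cd247 in knockout 2, at 26.6 CPM. Cd2 was 2.04 CPM in wild type 2 but 13.4 CPM in knockout 3. Tcf7 was 244 CPM in wild type 2 but 76.0 CPM in knockout 3. Cd3d was 441 CPM in knockout 3 but 202 CPM in wild type 2, below the 212 CPM of wild type 4. Monocyte and macrophage markers, all 10 of them detected, summed to 163 and 196 CPM there and to 435 to 1257 CPM elsewhere, and the eosinophil markers were also lowest in this pair, at 3.13 and 3.51 CPM against 11.1 to 33.8 CPM. The sum of stromal and endothelial markers, all 8 detected, was highest there, at 282 and 250.2 CPM against 94.0 to 213 CPM. Col1a1, Col1a2 and Col3a1 followed this sum. Pecam1, an endothelial marker, and Sparc did not, being highest in knockout 1 at 39.7 and 37.7 CPM, against 22.7 and 27.9 CPM in wild type 2. The sum of 10 proliferation genes, all detected, was 2315 and 2581 CPM in wild type 2 and knockout 3, 1149 CPM in wild type 1, the lowest library, and 1293 to 2434 CPM in the other 4. B cell markers, all 7 detected, ran from 4.78 to 114 CPM in the wild types and from 68.0 to 149.7 CPM in the knockouts. Wild type 1 had the highest sum of neutrophil markers and the lowest sum of T lineage markers. S100a8 and S100a9 gave 10487 and 11610 CPM of the neutrophil sum there. Single markers differed. S100a9, Ly6g and Retnlg were higher in knockout 1, at 11820, 66.7 and 482 CPM against 11610, 64.5 and 470 CPM. Mmp9 and Mmp8 were highest in knockout 2, at 1037 and 148 CPM against 896 and 132 CPM in wild type 1. S100a8, Cxcr2, Csf3r, Trem1 and Il1r2 were highest in wild type 1. Tcf7, at 78.9 CPM in wild type 1, was lower in all knockouts. Wild type 1 also had the highest Mcl1, Bcl2l1, Bcl2l11 and Bcl2a1b and the lowest Bcl2. The part of these cell types in the levels of the 10 genes was not tested, and in such bulk RNA fewer cells of a type and less RNA per cell cannot be told apart. Within the 5 other libraries Mcl1 still spanned 2.45-fold, Bcl2l1 4.47-fold and Bcl2l11 4.56-fold, and without wild type 2 and knockout 3 their knockout over wild type log2 fold changes were 0.074, 0.47 and -0.051, again not called.

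**Figure D4:**
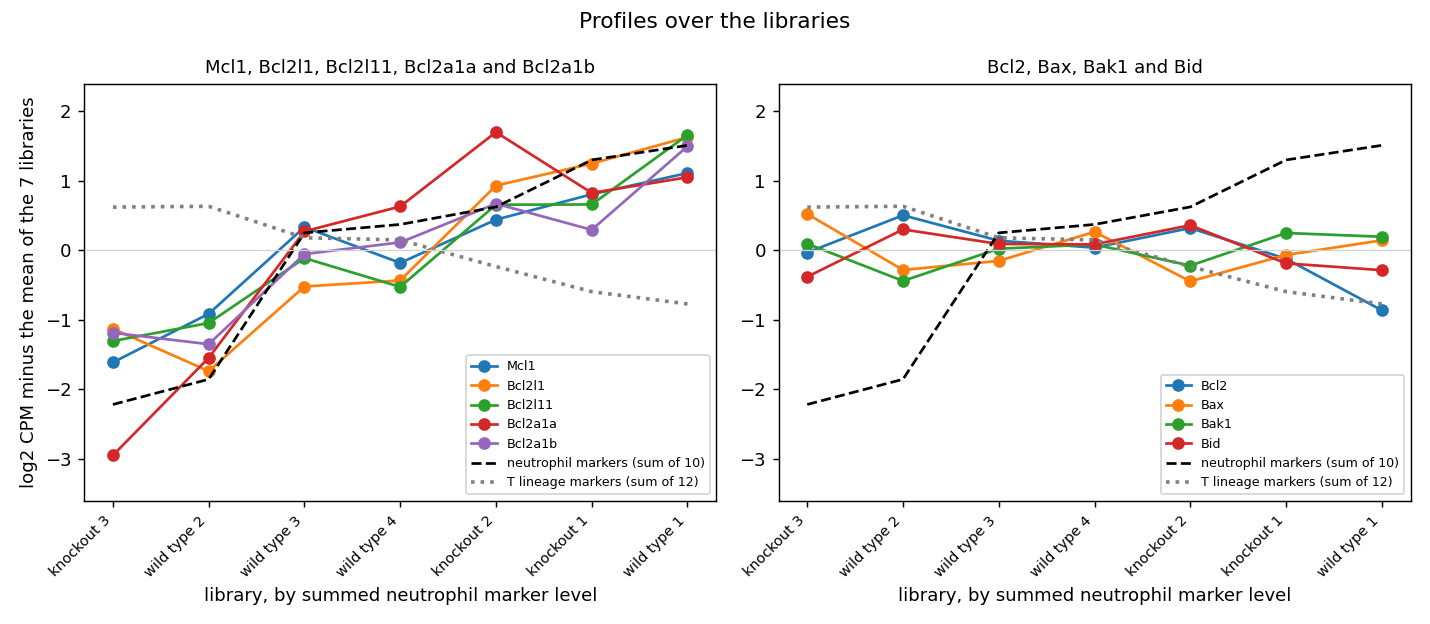
Log2 CPM minus its mean over the 7 libraries, with libraries ordered by summed neutrophil marker level (dashed black line; dotted grey line, summed T lineage markers). Mcl1, Bcl2l1, Bcl2l11, Bcl2a1a and Bcl2a1b (left) are lowest in knockout 3 and wild type 2, whereas Bcl2, Bax, Bak1 and Bid (right) vary less over the libraries.

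The genes most like 3 of the members were found by Pearson's r of log2 CPM over the 7 libraries among 4809 genes, as a description. For Mcl1 they were Egr1, an immediate early transcription factor, Ptpre, a tyrosine phosphatase, Slc15a3, an endolysosomal transporter, Cxcl2, a neutrophil-attracting chemokine, and Dtx3l, a ubiquitin ligase (r = 0.996 to 0.997). Knockout 3 had the lowest Cxcl2, 419 CPM, and wild type 1 the highest, 8172 CPM. For Bcl2a1b they were Ninj1, a mediator of membrane rupture in dying cells, Bcl10, an adaptor of NF-kB signalling, Sptan1, a spectrin, Map3k8, a kinase of inflammatory signalling, and Rnf216, a ubiquitin ligase (r = 0.987 to 0.998). For Bcl2 they were Prkca, a protein kinase C, Atad2, a chromatin protein of cycling cells, Tigd2, Tfrc, the transferrin receptor, and Dnm1l, a mitochondrial fission enzyme (r = 0.953 to 0.973). Such r values were common: 605 genes had r above 0.9 with Mcl1, 460 with Bcl2a1b and 48 with Bcl2. The points share library depth and cell makeup, and without wild type 2 and knockout 3 the r of these 15 genes was 0.943 to 0.995. These 15 genes were chosen by r over all 7 libraries, so that range is no independent check.

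The rest of the family was also measured. Of 16 other BCL2 family genes, 10 were tested, 0 passed, 5 had a fitted change above 0 and 5 below, and the median was -0.0059. DESeq2 and limma-voom also called 0 of them, and at an unadjusted p under 0.05 edgeR and DESeq2 each had 1, Bcl2l12, and limma-voom 0. Over all genes these shares were 1.23% in edgeR, 1.71% in DESeq2 and 4.19% in limma-voom. Bcl2a1c, Bcl2l10 and Bik had 0 counts in all libraries. Bcl2l12, an atypical member, had the smallest p, with 4.78, 15.97, 8.54 and 16.9 CPM in the wild types and 4.67, 3.68 and 4.67 CPM in the knockouts. The groups did not overlap for this 1 of the 10 tested genes, against 3.13% of all genes, although wild type 1 lay close to knockouts 1 and 3. The log2 fold change was -1.41 ± 0.59 (SE) with an unadjusted p of 0.0394 and an adjusted p of 0.99995 in edgeR. Bad, a BH3-only gene, had 45.7 ± 18.6 CPM (SD, n = 4) in the wild types and 57.1 ± 39.5 CPM (SD, n = 3) in the knockouts, where knockout 3 alone held 102.6 CPM. Bnip3l, of mitophagy, had 182 ± 37.3 and 143 ± 78.2 CPM. Bcl2l15 was at 0 counts in wild types 2 and 4 and knockout 3 and reached 6.13 CPM in knockout 2. Pmaip1, the gene of the MCL1-binding BH3-only protein NOXA, was chosen after its values were seen. It ranged from 6.04 to 88.6 CPM. Among these 10 tested genes, only Pmaip1 had wild type 2 and knockout 3 as the lowest 2 libraries, against 16.1% of all genes tested.

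Downstream of the mitochondria, 19 of 19 genes of the apoptosome, caspases and inhibitors of apoptosis (IAPs) were tested and 0 passed. A fitted change above 0 was seen for 7 and below 0 for 12, and the median was -0.076. Over all genes tested, 51.4% had a fitted change above 0. In this list and in the regulators below, DESeq2 and limma-voom called 0 genes as well, and at an unadjusted p under 0.05 all 3 tools had 0. Diablo, whose protein leaves mitochondria to block IAPs, had 52.3, 52.5, 52.8 and 62.2 CPM in the wild types and 33.4, 43.5 and 52.0 CPM in the knockouts. The groups did not overlap for this 1 of the 19 genes, against 3.13% of all genes, although knockout 3 and wild type 1 nearly met. The log2 fold change was -0.35 ± 0.27 (SE; edgeR adjusted p = 0.99995). Endog, a mitochondrial nuclease, had 15.3 ± 4.76 CPM (SD, n = 4) and 8.45 ± 4.65 CPM (SD, n = 3). Apaf1, the scaffold of the apoptosome, had 28.1 ± 12.6 and 18.9 ± 8.40 CPM, and Aifm1, a mitochondrial flavoprotein, 43.0 ± 4.64 and 35.2 ± 6.63 CPM. Birc3, the gene of cIAP2, was lowest in knockout 3, at 12.1 CPM, and highest in wild type 1, at 252 CPM. It was, with Casp9 and Birc2, 1 of 3 genes of this list that were lowest in wild type 2 and knockout 3. Over all genes tested this order held for 16.1%. Birc3, Casp9 and Birc2 were chosen after their values were seen.

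Of 19 regulators of the family, all tested, 0 passed, 9 had a fitted change above 0 and 10 below, and the median was -0.0036. The kinase gene Pim1, whose product phosphorylates BAD, had 3593, 375, 1599 and 1631 CPM in the wild types and 1146, 1266 and 241 CPM in the knockouts, a log2 fold change of -1.03 ± 0.77 (SE; edgeR adjusted p = 0.99995) that was -0.48 without wild type 1. Stat5b, a transcription factor downstream of cytokine receptors, had 36.5 ± 12.3 CPM (SD, n = 4) and 24.2 ± 10.7 CPM (SD, n = 3). Trib1, a pseudokinase, had 925 ± 748 and 618 ± 323 CPM, and Nfkb1, an NF-kB subunit whose pathway is known to drive Bcl2a1 genes, 64.7 ± 16.1 and 78.6 ± 34.0 CPM. Wild type 2 and knockout 3 were the lowest 2 libraries for Pim1, Trib1, Mdm2, Rel and Stat3, or 5 of 19, against 16.1% of all genes tested. Mdm2, Rel and Stat3 were chosen after their values were seen.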

How the data were processed

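RNA of 7 libraries was measured by 3′ tag sequencing. The authors deposited whole-number counts per Ensembl gene. The tools and genome named in the submitters' processing notes are RSEM 1.2.3, DESeq2 and mm10, without their roles, and the counts may be rounded estimates. The annotation, strand setting, read length and handling of multi-mapped reads are not given in the sources used here. Groups came from the sample titles. Symbols, coordinates (1-based) and transcripts came from GENCODE M21 (GRCm38, the build of mm10), and promoters from RefSeq.

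Knockout was compared with wild type over all 12506 genes kept by filterByExpr, with edgeR 4.0.16 in R 4.3.3 (TMM, robust quasi-likelihood F test, Benjamini-Hochberg adjustment, threshold 0.05). The SE of a log2 fold change was derived from its F value. Log2 CPM used a prior count of 2. Alternatives were DESeq2 1.42.0, limma-voom (limma 3.58.1), other scalings and filters, covariates and left-out libraries. The members and lists were chosen with earlier results of these data known. Named were the 10 members, up to 4 genes per pathway list by smallest p, and 5 genes most like each of 3 members.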

Additional observations from a re-analysis of the deposited data

Results flagged for a closer look

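Diablo was set apart by the spread within wild type. Its log2 CPM in wild type 4 stood away from the other 3 wild-type libraries by 0.94 of the whole range of the group, above Dixon's critical value for 4 values, where the range itself was small (52.3 to 62.2 CPM). Of 23 values examined in this way, 1 was set apart, and chance sets apart about 5% of such groups.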

How the results depend on the processing

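No gene among the 10 members, the summed Bcl2a1 copies or the other 12 named genes of the pathway lists was called under any of 16 alternatives in which it was tested, whose smallest adjusted p was 0.893. Over all genes, DESeq2 called 1 gene, which is no member, and the other 15 alternatives called 0. Of 364 refitted log2 fold changes, 44 turned the other way, each from a value smaller than its standard error except that of Apaf1 (-0.57 ± 0.46); the cause was not tested. Limma-voom gave 0.47 for Bcl2a1b, 0.25 for Mcl1, 0.62 for Bcl2l11, -0.12 for Bax and 0.020 for Trib1. With the description stem as a covariate, which compares knockout 1 alone with wild type, values were 0.53 for Mcl1, -0.16 for Bcl2, 0.27 for Bcl2l11, -0.077 for Bax, 0.31 for Bnip3l, -0.30 for Bad and 0.025 for Apaf1. Without wild type 2 and knockout 3 they were 0.074 for Mcl1, -0.39 for Bax, -0.11 for Bak1, 0.087 for Bid and -0.62 for Bad. Upper-quartile factors gave -0.00030 for Bcl2.

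With the replicate number as a block and wild type 4 left out, values were -0.10 for Bcl2a1a, -0.74 for Bcl2a1d and -0.027 for Bcl2l15, and 0 genes were called, as without the block. Deviations from the group means of same-numbered libraries correlated at 0.349, -0.225 and -0.184 across genes. The best match was wild type 1 for knockout 1, wild type 1 for knockout 2 (0.261) and wild type 2 for knockout 3 (0.470). Whether the numbers pair the libraries cannot be decided from these correlations, because differences in cell makeup also enter them.

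Leaving out 1 library at a time gave ranges of -0.37 to 0.75 for the Bcl2a1 sum, -0.45 to 0.93 for Bcl2a1a, -0.66 to 0.39 for Bcl2a1b, -4.14 to 1.51 for Bcl2a1d, -0.52 to 0.32 for Mcl1, -0.19 to 0.23 for Bcl2, -0.029 to 1.42 for Bcl2l1 and -0.42 to 0.72 for Bcl2l11. The ranges were -0.31 to 0.25 for Bax, -0.045 to 0.19 for Bak1, -0.46 to 0.62 for Bad and -0.97 to 0.084 for Trib1. Bcl2a1d and Bcl2l15 fell below the filter in some of the fits. Mean CPM of the members in the wild-type libraries moved by less than 1 SD with total counts or RLE factors in place of TMM. With 3 and 4 libraries and a biological coefficient of variation of 0.563, precision is limited by the spread between libraries more than by depth. Bcl2a1d and Bcl2l15 also spread widely, from 0 to 286 and from 0 to 20 counts per library, and their counts of 0 limit precision further.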
